A study of Mus musculus with 73 samples.

Results

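XiteC-inv is an allele of the X-inactivation centre (Xic) in which an interval of the Xite region was turned round in place, and its contacts were measured by 5C in mouse embryonic stem (ES) cells. 5C reads the ligation products between a pool of forward and a pool of reverse primers, each primer standing for 1 restriction fragment, so that every forward and reverse pair has a count. The comparison takes every primer pair of 4 libraries, XiteC-inv 1 and 2 against WT 1 and 2, out of 73 samples in the series. Forward and reverse primers make 297498 possible pairs, and 252009 of them had a count in at least 1 of the 4 libraries. On chromosome X there are 511 forward and 528 reverse primers over 4.59 Mb (mm9 chrX:98831149-103425147), and chromosome 5 holds 26 of each kind.

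All cells were the male line E14Tg2a (strain 129/Ola, XY), kept on gelatin, feeder-free, in serum and leukemia inhibitory factor (LIF), and untreated. XiteC-inv cells carry the inversion on their only X chromosome, and WT cells have the genotype label WT. Another set of 5C libraries labelled WT, deposited under other titles, was not used here. Per the labels' protocols, edits were made with CRISPR plasmids or TALENs and carried as clones checked by PCR and sequencing. The XiteC-inv libraries begin with different numbers in their descriptions, and the labels do not say whether these are separate clones. The labels do not say that libraries of 1 genotype come from separate cultures, so p-values measure the spread between these libraries. Libraries of the XiteC deletion (XiteC-del) and of the XiteE inversion and deletion, 2 of each, entered the fits to estimate that spread. The sources used here do not say what the C of XiteC stands for.

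The Xic is the part of the X chromosome that controls X inactivation. Xist is the noncoding RNA that coats and silences an X chromosome, Tsix is transcribed across Xist on the opposite strand and restrains it, and Xite is a regulatory element of Tsix. The Xic is folded into topologically associating domains, stretches of DNA that contact themselves more than their neighbours, and Tsix and Xist have their regulators in adjacent domains. In the RefSeq gene order Nap1l2, Cdx4, Chic1, Tsx and Tsix come before Xist, and Jpx, Ftx and Rlim come after it, in the direction of rising coordinates. No mm9 gene positions were used here, so contacts are described by coordinate and by side.

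The libraries held 19646583 and 22156037 counts in XiteC-inv 1 and 2, against 16811959 and 16267499 in WT 1 and 2. WT 2 stood apart. It has the code B101 in its description, while both XiteC-inv libraries and WT 1 have B100. Chromosome X pairs under 100 kb apart gave 43.6% and 45.7% of the chromosome X counts in XiteC-inv 1 and 2, against 43.6% in WT 1 and 55.2% in WT 2. Pairs between chromosomes gave 1.60% and 1.20% in XiteC-inv 1 and 2, against 1.71% in WT 1 and 0.282% in WT 2. The mean short-range share was 44.6% in XiteC-inv and 49.4% in WT (two-sided exact permutation test over libraries p = 0.667, where 2 against 2 allow no p below 0.333), and without WT 2 the difference changed sign, to 0.998 percentage points. The other B101 library, XiteE-inv 2, had a short-range share of 58.1%. Results are therefore given without a block, with the B code taken as a block (the blocked fit), and, where named, within the 8 B100 libraries alone. Those 8 hold only 1 WT library, WT 1, which is assumed there to vary like the other genotypes, so values from them are given as descriptions and not as a further test. The blocked fit estimates the B code effect from WT and XiteE-inv, the genotypes that have both codes, and is not independent of the B100 values. Values are counts scaled to 1000000 counts of each library (CPM), a called feature has a Benjamini-Hochberg adjusted p under 0.05, and every library averages over a cell population, in which more cells with a contact and a more frequent contact per cell cannot be told apart.

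The interval was located from the XiteC-del libraries, as the run of fragments that lost their counts there. Of 1020 primers tested, FOR577 was the only one lost (mm9 chrX:100636563-100639613). FOR577 had 75.6 and 84.4 CPM over all partners in XiteC-del 1 and 2. The next primer towards lower coordinates, REV576 (mm9 chrX:100633846-100636562), had 1639 and 1793 CPM in XiteC-del. Of these, 970 and 984 CPM came from 1 pair, with FOR748. In WT 1 and 2 REV576 had 3773 and 2792 CPM, with 946 and 111 CPM from that pair. The 6 pairs of REV576 within 20 kb had only 8.07 and 12.3 CPM in XiteC-del. Those 6 pairs had 844 and 863 CPM in XiteC-inv, against 764 and 870 CPM in WT. The ends of the inverted stretch cannot be read from these counts.

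FOR577 had 1925 and 2074 CPM over its chromosome X partners in XiteC-inv 1 and 2, against 2175 and 2498 CPM in WT 1 and 2. REV576 had 4465 and 4244 CPM in XiteC-inv, against 3757 and 2789 CPM in WT. Neither passed the test (edgeR quasi-likelihood, log2 fold changes of -0.22 and 0.41, adjusted p = 0.871 for both). Of all 1039 chromosome X primers, 0 were called in edgeR without a block, with 36 at an unadjusted p under 0.05, and 0 in the blocked fit (122 unadjusted) or in DESeq2 (81 unadjusted). Both XiteC-inv libraries lay above both WT libraries at 8.18% of these primers and below them at 19.5%. The 5 primers with the smallest unadjusted p in each direction, none of which passed, were REV753, FOR1241, REV152, REV817 and FOR748 among the higher ones and REV1304, REV965, REV23, FOR1442 and FOR412 among the lower ones. The largest of these differences was at REV1304, with 794 and 490 CPM in XiteC-inv, against 1179 and 1188 CPM in WT (log2 fold change -0.88 ± 0.24 SE).

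In XiteC-inv the surroundings of the Xite interval had most of its contacts on the higher-coordinate side, and in WT on the lower-coordinate side. The 8 primers within 10 kb of the interval midpoint (FOR575 to REV582), a group chosen after seeing the data, were summed without the contacts among themselves. They sent 65.1% and 64.3% of their contacts within 500 kb to the higher-coordinate side in XiteC-inv 1 and 2, against 34.2% and 28.7% in WT 1 and 2. The difference of means was 33.2 percentage points, with both XiteC-inv libraries above both WT libraries (two-sided exact permutation test p = 0.333, the smallest this design allows). In the 6 libraries of the other edits the same share lay between 27.5% and 42.8%. The sum does not hold the same primers in all of them. XiteE-del lacks nearly all counts of FOR575, and XiteC-del those of FOR577 and of the near pairs of REV576. Only XiteE-inv kept the counts of all 8 primers, and the part of these losses in the range was not tested. On the higher side the 8 primers had 7762 and 8063 CPM in XiteC-inv, against 3972 and 3701 CPM in WT. On the lower side they had 4168 and 4483 CPM in XiteC-inv, against 7648 and 9193 CPM in WT. The libraries of the genotypes do not overlap in either sum.

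FOR577 alone sent 56.8% and 56.7% of its contacts within 500 kb to the higher side in XiteC-inv, against 46.9% and 47.1% in WT, a difference of 9.77 percentage points (two-sided exact permutation test p = 0.333). Without partners within 10 kb, an alternative chosen after seeing the data, the shares were 56.4% and 53.5% in XiteC-inv, against 22.4% and 25.1% in WT. The difference was then 31.2 percentage points. It was 4.75 points at a reach of 250 kb, 12.5 points at 1000 kb and 6.76 points over pairs counted in all 4 libraries. Its higher-side counts beyond 10 kb were 595 and 619 CPM in XiteC-inv, against 227 and 333 CPM in WT. The lower-side counts beyond 10 kb were 461 and 537 CPM in XiteC-inv, against 786 and 995 CPM in WT. Of 66 tested higher-side partners of FOR577 within 500 kb, 38 had both XiteC-inv libraries above both WT libraries and 2 below, while of 45 lower-side partners 3 were above and 25 below. Over all 153097 primer pairs tested, 15.8% lay above and 13.7% below in this sense. The partners share FOR577 and are not independent of each other.

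Primers on both sides of the interval differed in the same direction, by 2.75 to 30.4 percentage points within 25 kb. REV576 sent 81.2% and 76.0% of its contacts to the higher side in XiteC-inv, against 56.7% and 39.7% in WT. FOR575, at -6.41 kb from the interval midpoint, sent 63.7% and 63.9% in XiteC-inv, against 34.7% and 35.3% in WT. REV578, 1.98 kb above it, sent 77.7% and 73.7% in XiteC-inv, against 45.5% and 48.7% in WT. These primers have no overlap between the genotypes. Farther out, FOR573 at -17.0 kb sent 33.7% and 40.3% in XiteC-inv, against 28.1% and 25.5% in WT. REV584 at 20.5 kb sent 63.8% and 62.6% in XiteC-inv, against 59.6% and 61.2% in WT. Of the 15 primers within 25 kb, 14 had both XiteC-inv libraries above both WT libraries and 0 had both below, with a median difference of 14.7 points. Among all 772 primers with 500 kb of covered sequence on each side, 14.4% lay above and 19.8% below, with a median of -0.28 points and a range of -38.2 to 48.3 points. The widest difference of all, 48.3 points, was at REV837, 744 kb above the interval, so large values also occurred far from it. At 25 to 100 kb, 2 of 24 primers on the lower side lay above and 9 below, and 4 of 22 on the higher side lay above and 5 below.

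XiteC-del libraries lay near XiteC-inv on one flank and near WT on the other. On the lower-coordinate flank, FOR575 sent 58.5% and 56.4% of its contacts to the higher side in XiteC-del and REV574 60.5% and 63.9%. XiteC-inv had 63.8% and 61.9% at REV574, against 51.6% and 41.5% in WT. FOR575 with REV580 had 456 and 443 CPM in XiteC-del, against 147 and 183 CPM in XiteC-inv and 114 and 144 CPM in WT. FOR575 with REV578 was likewise higher in XiteC-del, at 381 and 329 CPM, against 99.05 and 125 CPM in XiteC-inv. In the other direction, FOR575 with REV576 had 0.472 and 0.505 CPM in XiteC-del, against 213 and 250 CPM in XiteC-inv. The part of these near pairs in the XiteC-del shares was not tested. On the higher-coordinate flank the deletion libraries lay nearer to WT. REV580 sent 56.6% and 56.5% to the higher side in XiteC-inv, against 37.2% and 37.3% in XiteC-del and 35.2% and 33.4% in WT. REV582 sent 56.9% and 55.9% in XiteC-inv, against 37.0% and 39.5% in XiteC-del and 41.3% and 41.7% in WT. These shares are given as values, since no p below 0.333 is possible for any of these primers.

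**Figure D1:**
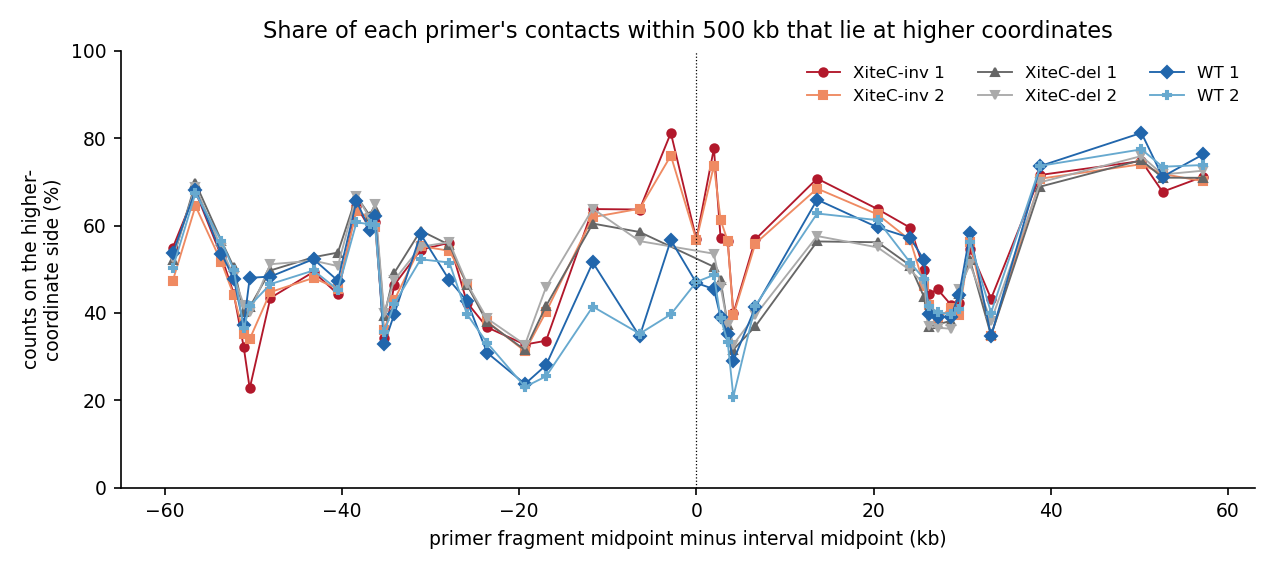
Share of each primer's contacts within 500 kb that lie at higher coordinates (y axis, percent) against the distance of the primer fragment from the interval midpoint (x axis, kb), 1 point per primer and library. Near 0 both XiteC-inv libraries lie above both WT libraries, with 77.7% and 73.7% in XiteC-inv, against 45.5% and 48.7% in WT, at REV578. FOR577 and REV576 are not drawn for XiteC-del, which lost them in whole or in part.

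In 30 kb bins, the bin that holds the interval (mm9 chrX:100631149-100661148) held most of the called differences. In edgeR without a block 0 of 11618 bin pairs were called, 272 had an unadjusted p under 0.05, and DESeq2 called 1. The blocked fit called 22 pairs (0.189% of those tested), 14 higher (0.121%) and 8 lower (0.0689%). Of these 22, 17 include the interval bin and 3 more include the next bin towards lower coordinates. The interval bin takes part in 153 of the 11618 tested pairs. Within the 8 B100 libraries, with 1 WT library, 21 pairs were called, 16 of them with the interval bin. Of the 21, 17 are among the 22, and the fits share these libraries. Subtracting the decay of contacts with distance, without a block, gave 9 calls, all of which include the interval bin and all of which are among the 22. DESeq2's single call, the interval bin with the bin 90 kb below, is among them too.

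On the lower side contacts of the interval bin fell in the blocked fit with 7 bins between 60 and 270 kb away. With the bin 90 kb below (chrX:100541149-100571148) it had 207 and 245 CPM in XiteC-inv 1 and 2, against 620 and 806 CPM in WT 1 and 2. The log2 fold change was -1.66 ± 0.21 (SE) without a block (edgeR adjusted p = 0.157), -1.45 ± 0.13 in the blocked fit (adjusted p = 1.59e-05) and -1.46 within the B100 libraries, against WT 1 alone. With the bin 60 kb below, the values were 737 and 866 CPM in XiteC-inv, against 1747 and 2169 CPM in WT (blocked edgeR fit, log2 fold change -1.12 ± 0.10, adjusted p = 1.59e-05). At 180 kb below, they were 486 and 539 CPM in XiteC-inv, against 1120 and 1524 CPM in WT (blocked edgeR fit, -1.12 ± 0.13, adjusted p = 0.000167). In each of these bin pairs the higher XiteC-inv library is under the lower WT library. Bin pairs at 150, 210, 240 and 270 kb below were also called lower in the blocked fit, and the bin at 120 kb was not (edgeR adjusted p = 0.0613). Without a block, the smallest adjusted p on this side was 0.157, shared by the bins at 60, 90, 150 and 210 kb. In all 7 called bin pairs both XiteC-del libraries also lay below both WT libraries. XiteC-del had 395 and 368 CPM at 90 kb below. At 270 kb below it had 256 and 254 CPM, beside 260 and 251 CPM in XiteC-inv and 398 and 500 CPM in WT. XiteE-del lay below both WT libraries at 60, 90, 150, 180 and 210 kb, and not at 240 or 270 kb. The interval bin lacks FOR577 in XiteC-del and FOR575 in XiteE-del.

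Within 600 kb on the lower side, 14 of the 16 bins tested had both XiteC-inv libraries below both WT libraries and 0 had both above, where 12.1% of all bin pairs lie below. The median log2 fold change of the 16 was -0.94 without a block and -0.79 with it, beside 0.06 and -0.09 over all bin pairs. The summed contacts on that side were 4909 and 5356 CPM in XiteC-inv, against 8707 and 10525 CPM in WT. The adjoining bin at 30 kb below did not pass, with 1379 and 1552 CPM in XiteC-inv, against 1716 and 1892 CPM in WT (blocked edgeR fit, -0.20, adjusted p = 0.730). Contacts inside the interval bin itself were 4433 and 4753 CPM in XiteC-inv, against 4284 and 5284 CPM in WT.

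On the higher side contacts of the interval bin rose in the blocked fit with 10 bins, the farthest 540 kb away. With the bin 540 kb above (chrX:101171149-101201148) it had 515 and 619 CPM in XiteC-inv, against 189 and 242 CPM in WT. The log2 fold change was 1.39 ± 0.20 (SE) without a block (edgeR adjusted p = 0.169), 1.498 ± 0.18 in the blocked fit (adjusted p = 0.000216) and 1.59 within the B100 libraries, against WT 1 alone. With the bin 180 kb above (chrX:100811149-100841148), the values were 660 and 650 CPM in XiteC-inv, against 273 and 328 CPM in WT (blocked edgeR fit, 1.25 ± 0.15, adjusted p = 0.000234). At 390 kb above they were 535 and 547 CPM in XiteC-inv, against 235 and 219 CPM in WT (blocked edgeR fit, 1.101 ± 0.16, adjusted p = 0.00261). The genotypes did not overlap at any of these distances.

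Within 600 kb on the higher side, 19 of 20 bins had both XiteC-inv libraries above both WT libraries and 0 had both below, where 17.6% of all bin pairs lie above. The exception was the adjoining bin at 30 kb, with 2857 and 3312 CPM in XiteC-inv, against 2134 and 2921 CPM in WT. The blocked fit called that pair higher (edgeR log2 fold change 0.54, adjusted p = 0.00679), and an offset for the coverage of each bin, without a block, gave -0.18. The median log2 fold change of the 20 bins was 0.96 without a block and 0.86 with it. The summed contacts were 12672 and 13101 CPM in XiteC-inv, against 7698 and 7109 CPM in WT. From 600 to 1000 kb, 11 of 13 bins on the higher side lay above and 7 of 9 on the lower side lay below, and none of these was called. The bins share the interval bin, so these counts describe the row and are not independent tests.

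**Figure D2:**
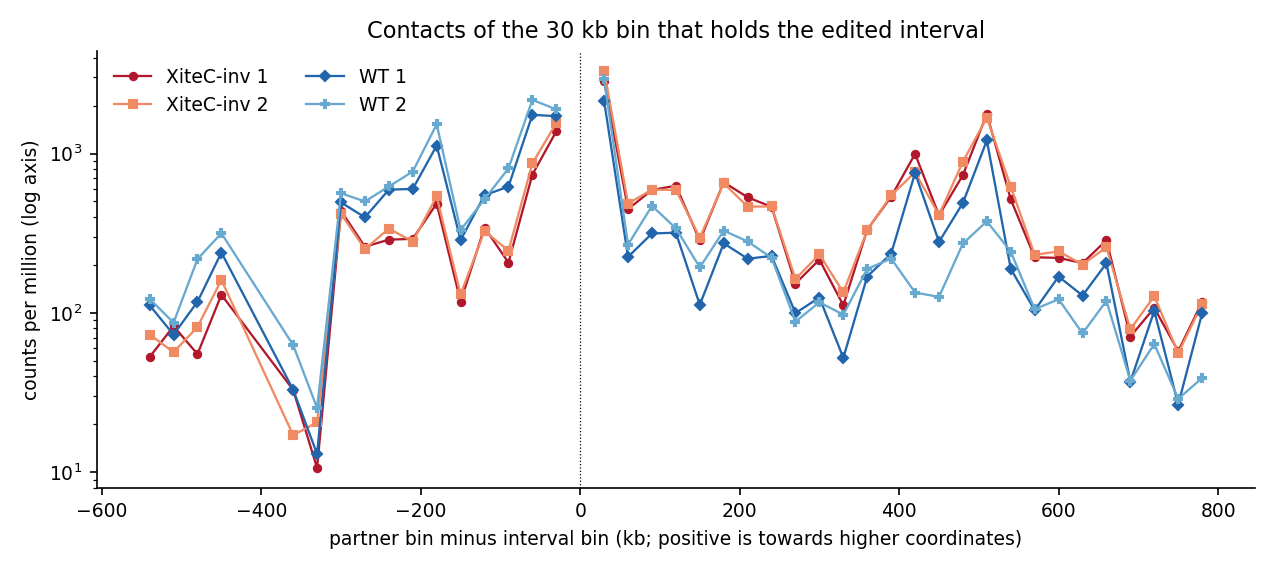
Contacts of the 30 kb bin that holds the interval with each other tested bin (y axis, CPM on a log axis) against the distance of the partner (x axis, kb), 1 line per library. At most distances both XiteC-inv lines run below the WT lines on the left, with 207 and 245 CPM in XiteC-inv, against 620 and 806 CPM in WT, at -90 kb, and above them on the right, with 515 and 619 CPM in XiteC-inv, against 189 and 242 CPM in WT, at 540 kb.

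The neighbouring bins had fewer called pairs. The bin just below the interval bin (chrX:100601149-100631148) had 3 higher-side pairs called higher in the blocked fit, and 19 of its 20 higher-side bins within 600 kb lay above and 1 below, with a median log2 fold change of 0.97 without a block. Its sums there were 4384 and 4775 CPM in XiteC-inv, against 3301 and 3670 CPM in WT. With the bin 120 kb above itself it had 257 and 264 CPM in XiteC-inv, against 126 and 141 CPM in WT (blocked edgeR fit, log2 fold change 1.13 ± 0.18, adjusted p = 0.00489). XiteC-del had 272 and 249.9 CPM in that bin pair, and 5022 and 4996 CPM in the higher-side sum, so both deletion libraries were above both WT libraries there too. On the lower side this bin had 5089 and 5283 CPM in XiteC-inv, against 5231 and 6636 CPM in WT, and 5 of 15 bins lay below. The bin just above the interval bin had 6 of 20 higher-side bins above and 0 below. Its higher-side sums overlapped, with 6891 and 6681 CPM in XiteC-inv, against 5639 and 7221 CPM in WT.

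The 2 called pairs that include neither of these bins each rest on a single primer pair. The pair chrX:101081149-101111148 with chrX:103001149-103031148 had 7846 and 7370 CPM in XiteC-inv, against 5694 and 1158 CPM in WT, and 99.6% of its counts come from FOR723 with REV1396. The pair chrX:99041149-99071148 with chrX:102431149-102461148 had 169 and 38.5 CPM in XiteC-inv, against 921 and 2.58 CPM in WT, and 98.9% of its counts come from FOR64 with REV1208. Within the B100 libraries, against WT 1 alone, the log2 fold changes of these bin pairs were 0.42 and -3.15. Both single primer pairs were called in edgeR without a block (adjusted p = 1.00e-06 and 5.74e-07).

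**Figure D3:**
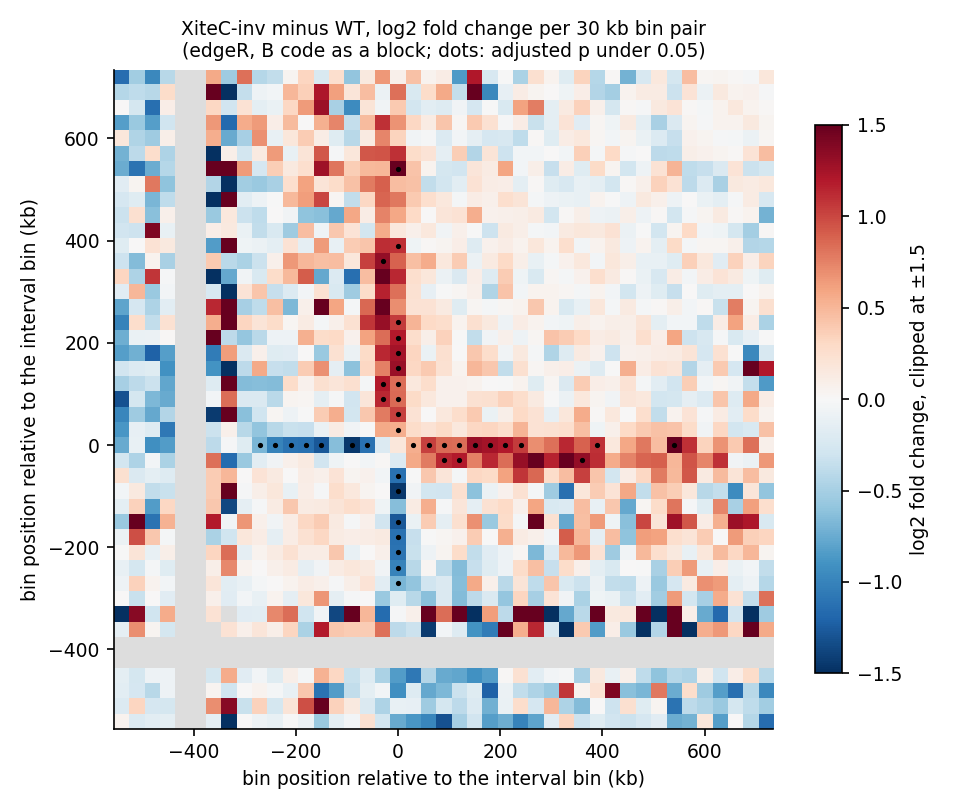
Map of the log2 fold change of XiteC-inv minus WT (colour, blocked edgeR fit) for pairs of 30 kb bins, both axes in kb from the interval bin, with dots on pairs at an adjusted p under 0.05 and grey where nothing was tested. Dots line the row of the interval bin in red from 30 to 540 kb and in blue from -270 to -60 kb, and the 3 other dots are red and lie in the row at -30 kb.

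The XiteC-del libraries, which are all B100, gave a further comparison, added after seeing the data. Against XiteC-del, 17 bin pairs were higher and 6 lower in XiteC-inv in the blocked edgeR fit (0.146% and 0.0516% of 11618), and 0 without a block. All 17 of the higher ones include the interval bin, and so do 3 of the lower ones. In the fit with the block, the interval bin with the bin 540 kb above had 515 and 619 CPM in XiteC-inv, against 226 and 187 CPM in XiteC-del (log2 fold change 1.46, edgeR adjusted p = 0.000104). On the higher side within 600 kb, 20 of 20 bins were above both XiteC-del libraries, where 13% of all bin pairs were. The summed higher-side contacts were 12672 and 13101 CPM in XiteC-inv, against 7609 and 7625 CPM in XiteC-del. On the lower side 7 of 16 bins were below both XiteC-del libraries, where 20.3% of all bin pairs were. The lower-side sums were 4909 and 5356 CPM in XiteC-inv, against 7060 and 6741 CPM in XiteC-del. The XiteC-del bin lacks the counts of FOR577 and of most near pairs of REV576, and the part of that loss in these differences was not tested.

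Within 200 kb, the position with the lowest insulation value lay below the interval in XiteC-inv and above it in WT. Insulation was measured as the log2 ratio of contacts that cross a position to contacts on either side of it. A lower value means fewer crossing contacts relative to the flanking ones. In 15 kb bins with a 150 kb window, the position 38.1 kb above the interval midpoint (chrX:100676149) had -2.08 and -2.11 in XiteC-inv, against -2.70 and -2.77 in WT. The position at -6.94 kb from the midpoint (chrX:100631149) had -2.37 and -2.26 in XiteC-inv, against -1.82 and -1.99 in WT. The differences at these positions have opposite signs, and the genotypes overlap at neither. XiteC-del had -2.46 and -2.42 at 38.1 kb, and -1.64 and -1.62 at -6.94 kb. At -6.94 kb XiteE-del had -2.17 and -2.04, also below both WT libraries, and XiteE-inv had -1.89 and -2.07. At 8.06 kb XiteC-del had -2.08 and -2.04, beside -2.11 and -2.0003 in XiteC-inv, against -2.69 and -2.77 in WT. Within 200 kb the lowest value was at -6.94 kb in both XiteC-inv libraries, at 38.1 kb in WT 1 and at 8.06 kb in WT 2.

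With 30 kb bins and 150 kb on either side, the lowest value within 200 kb was at chrX:100631149 in both XiteC-inv libraries (-2.08 and -1.98), at chrX:100691149 in WT 1 (-2.05) and at chrX:100661149 in WT 2 (-2.04). In the other 6 libraries it was at chrX:100661149 or chrX:100691149. At the domain border nearest the interval, chrX:100691149, the ratio was -1.46 and -1.53 in XiteC-inv, against -2.05 and -2.001 in WT, a difference of 0.53 (two-sided exact permutation test p = 0.333). At chrX:100661149 it was -1.46 and -1.35 in XiteC-inv, against -2.04 and -2.04 in WT. XiteC-del had -1.62 and -1.60 there, and -1.84 and -1.81 at chrX:100691149. At chrX:100601149, -36.9 kb from the midpoint, the ratio was -1.34 and -1.39 in XiteC-inv, against -0.75 and -0.82 in WT. All libraries of the other edits also lay below both WT libraries at that position, though above both XiteC-inv libraries. XiteE-del had -1.04 and -1.13, XiteE-inv -0.83 and -0.92, and XiteC-del -0.95 and -0.97. Of 140 positions across the region, 52 had both XiteC-inv libraries above both WT libraries and 11 had both below. A lack of overlap in the higher direction was therefore common across the region. The 5 positions with the largest differences lay between -36.9 and 83.1 kb from the midpoint. At the 127 positions more than 200 kb away, the differences lay between -0.11 and 0.37, with a median size of 0.069.

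**Figure D4:**
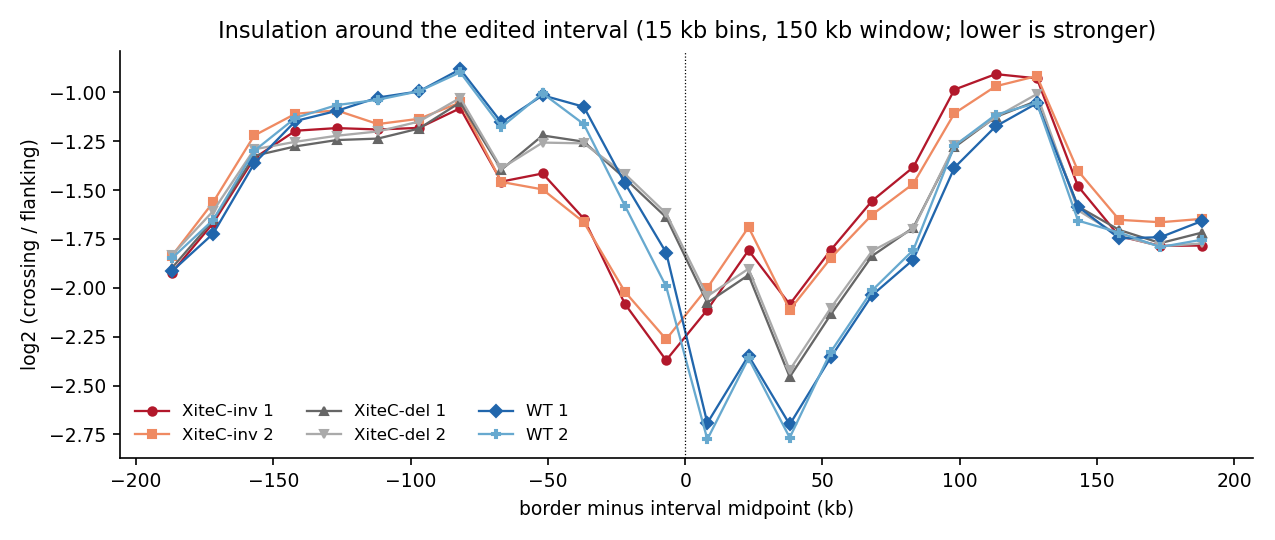
Insulation (y axis, log2 of crossing over flanking contacts, lower means fewer crossing relative to flanking contacts) against the distance from the interval midpoint (x axis, kb), 1 line per library, in 15 kb bins. The XiteC-inv lines are lowest at -6.94 kb (-2.37 and -2.26), and the WT lines have their 2 lowest points at 8.06 and 38.1 kb (-2.70 and -2.77 at 38.1 kb). XiteC-del lines are drawn beside them, with -2.08 and -2.04 at 8.06 kb.

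At the scale of domains, contacts of the domain that holds the interval rose in the blocked fit with the next domains at higher coordinates. The borders were taken from the insulation of the 6 libraries of the other edits, which gave 14 domains on chromosome X, and the interval lies in D6 (chrX:100421149-100691148). In edgeR without a block 0 of 120 domain pairs were called, 1 had an unadjusted p under 0.05, and DESeq2 called 0. The blocked fit called 4 (3.33%), 2 higher (1.67%) and 2 lower (1.67%). D6 with D8 (chrX:100811149-101261148) had 23148 and 22865 CPM in XiteC-inv, against 16654 and 12962 CPM in WT. The log2 fold change was 0.64 ± 0.17 (SE) without a block (edgeR adjusted p = 0.823), 0.44 ± 0.06 with it (adjusted p = 8.32e-05) and 0.47 within the B100 libraries, against WT 1 alone. XiteC-del (18659 and 19092 CPM) and XiteE-del (17723 and 16816 CPM) also lay above both WT libraries, though below both XiteC-inv libraries. XiteE-inv had 17822 and 12946 CPM.

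D6 with D7, the domain between them (chrX:100691149-100811148), had 7041 and 6951 CPM in XiteC-inv, against 5094 and 6835 CPM in WT. Its log2 fold change was 0.43 ± 0.09 in the blocked edgeR fit (adjusted p = 0.00766) and 0.23 ± 0.18 without it, and the sign turned under TMM and DESeq2 scaling without a block (-0.11 and -0.25). XiteC-del had 6781 and 6655 CPM in this domain pair, above WT 1 and below WT 2. XiteE-del had 5363 and 5164 CPM, and XiteE-inv 5277 and 6478 CPM. D4 (chrX:99671149-100331148) with D7 had 1131 and 1392 CPM in XiteC-inv, against 1865 and 2081 CPM in WT (blocked edgeR fit, -0.61 ± 0.16, adjusted p = 0.0493). All libraries of the other edits also lay below both WT libraries there. XiteE-del had 1440 and 1540 CPM, XiteE-inv 1682 and 1659 CPM, and XiteC-del 1588 and 1729 CPM. D2 with D13 was also called lower in the blocked fit, at 1576 and 1243 CPM in XiteC-inv, against 2259 and 522 CPM in WT, so that WT 1 and WT 2 lie on either side of XiteC-inv. Neither of these lower pairs was called within the B100 libraries, with 1 WT library (edgeR adjusted p = 0.286 for both).

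D6 with the lower domain D4 had 4337 and 4576 CPM in XiteC-inv, against 5162 and 6016 CPM in WT, and did not pass (blocked edgeR fit, -0.27, adjusted p = 0.111). Contacts inside D6 were 43587 and 47534 CPM in XiteC-inv, against 45207 and 57507 CPM in WT, where WT 2 is the high value. D7 with D8 had 12335 and 13528 CPM in XiteC-inv, against 12279 and 13793 CPM in WT, and the genotypes interleave. Of all 120 domain pairs, 7.5% had both XiteC-inv libraries above both WT libraries and 5% had both below. Of the 9 pairs above, 6 join D6 to D7, D8, D9, D10, D11 and D14.

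**Figure D5:**
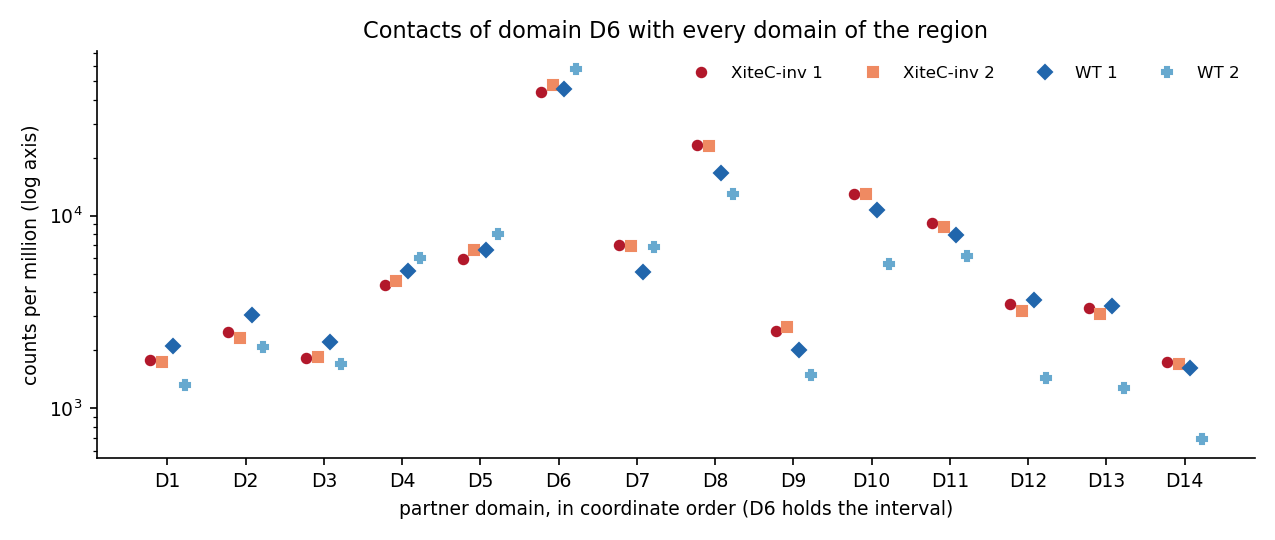
Contacts of D6, the domain of the interval, with each of the 14 domains (x axis, in coordinate order) in CPM (y axis, log axis), 1 point per library. XiteC-inv lies above both WT libraries at D8 (23148 and 22865 against 16654 and 12962 CPM) and below both at D4.

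At the resolution of single primer pairs, edgeR without a block called 32 of 153097 pairs (0.0209%), 22 higher (0.0144%) and 10 lower (0.00653%). Of the 10 lower pairs, 9 have a primer within 10 kb of the interval, although only 2656 of the tested pairs do. The other lower pair, FOR64 with REV1208, had 164 and 34.6 CPM in XiteC-inv, against 918 and 2.58 CPM in WT. The blocked fit called 180 pairs (0.118%), 107 higher (0.0699%) and 73 lower (0.0477%). Of these, 12 of the higher and 21 of the lower ones have a primer within 10 kb of the interval. The count without a block changed with the libraries used, from 11 without XiteC-inv 1 and 81 without XiteC-inv 2 to 1030 without WT 1 and 356 without WT 2, and edgeR called 0 of the 57996 pairs whose mean reached 50 counts.

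One lower pair was FOR577 with REV578, its direct neighbour at higher coordinates (chrX:100639614-100640516). It had 52.2 and 93.4 CPM in XiteC-inv, against 248 and 312 CPM in WT (edgeR without a block, log2 fold change -1.95 ± 0.36 SE, adjusted p = 0.000784). The next such neighbour, REV580, had 131 and 150 CPM with FOR577 in XiteC-inv, against 300.1 and 312 CPM in WT, and passed in the blocked fit (edgeR, -0.96, adjusted p = 0.00588). The neighbour on the other side, REV576, had 171 and 179 CPM with FOR577 in XiteC-inv, against 173 and 187 CPM in WT. FOR575 with REV576, both on the lower-coordinate side of FOR577, had 213 and 250 CPM in XiteC-inv, against 211 and 249 CPM in WT. The last 2 pairs overlap between the genotypes.

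The other 8 lower pairs near the interval joined the interval's surroundings to lower-side fragments, over 49.3 to 77.8 kb and, in FOR412 with REV576, over 453 kb. FOR546 (chrX:100565598-100567847) with REV580 had 0.102 and 8.85 CPM in XiteC-inv, against 63.8 and 64.2 CPM in WT (edgeR without a block, adjusted p = 5.74e-07). FOR546 with REV576 had 9.62 and 14.5 CPM in XiteC-inv, against 75.4 and 85.0 CPM in WT (adjusted p = 0.00102, edgeR). FOR579 with REV545 had 1.63 and 0.316 CPM in XiteC-inv, against 21.2 and 31.4 CPM in WT (adjusted p = 2.48e-05, edgeR). FOR554 with REV578 had 0.611 and 4.51 CPM in XiteC-inv, against 36.8 and 26.9 CPM in WT (adjusted p = 0.00113, edgeR). All 4 were called in the blocked fit as well, and the lower WT library is several-fold above the higher XiteC-inv library in each. These 4 and FOR577 with REV578 have means over 50 counts. When only such pairs were fitted, edgeR without a block called none of them.

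The higher pairs were of another kind. Of the 22, 21 have no primer within 10 kb of the interval, 15 of these 21 have a WT 2 value under 50% of WT 1, and 7 have both WT libraries under 1 CPM. FOR723 with REV1396, 1918 kb apart, had 7816 and 7350 CPM in XiteC-inv, against 5658 and 1147 CPM in WT. FOR1030 with REV516 had 6072 and 5983 CPM in XiteC-inv, against 4538 and 1762 CPM in WT, FOR217 with REV1435 had 3256 and 2775 CPM in XiteC-inv, against 2233 and 295 CPM in WT, and FOR915 with REV1495 had 2509 and 2175 CPM in XiteC-inv, against 1768 and 165 CPM in WT. These 4 pairs were also called in the blocked fit (edgeR adjusted p = 3.01e-11, 8.50e-07, 1.26e-05 and 0.0197, in the order given). FOR881 with REV694, 463 kb apart, had 18.0 and 14.6 CPM in XiteC-inv and 0 counts in both WT libraries. The other edits had this pair too, with 11.6 and 10.3 CPM in XiteC-del and 11.7 and 8.02 CPM in XiteE-del. XiteE-inv 1 and 2 had 11.5 and 0.533 CPM. FOR748 with REV576, the 1 higher pair near the interval, had 1307 and 1103 CPM in XiteC-inv, against 946 and 111 CPM in WT, and did not pass in the blocked fit (edgeR adjusted p = 0.33).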

How the data were processed

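The deposited 5C tables give a whole-number read count for each forward and reverse primer pair, and the primer lists give fragment positions in mm9. Per the submitters' processing notes, reads were processed with Bowtie2 (no version given) and mm9. The authors deposited the counts without normalization, as far as the values show. Counts were fitted per primer pair, 30 kb bin pair, domain pair and primer with edgeR 4.0.16 (quasi-likelihood, library total as offset) in R 4.3.3, over 10 libraries of 5 genotypes, with Benjamini-Hochberg adjustment over all features tested. The SE given with an edgeR log2 fold change is its absolute value divided by the square root of the quasi-likelihood F statistic. DESeq2 1.42.0 was an alternative. The blocked fit adds the B code of the description. Shares and insulation were compared by two-sided exact permutation tests over libraries. Bin pairs (up to 10), primer pairs and primers (5 each) with the smallest p in each direction are named, besides the primers around the interval and the domain pairs; pairs called only in the blocked fit, and FOR64 with REV1208, FOR748 with REV576 and REV584, were chosen after their values were seen. The members and lists were chosen with earlier results of these data known. Gene order is from RefSeq (GRCm38.p6), used for order only.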

Additional observations from a re-analysis of the deposited data

How the results depend on the processing

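Bin pairs called numbered 22 with the B code as block, 21 within the B100 libraries, 1 in DESeq2, 9 with a distance offset and 44 with that offset and the B code, against 0 without a block. Domain pairs called numbered 4 with the B code and 2 within B100. Primer pairs called numbered 0 at a mean of 50 counts or more, 4 in the 4 libraries alone, 180 with the B code and 672 within B100. Leaving out 1 library gave 11 to 1030, where a lone library is assumed to vary like the other groups. The replicate numbers pair only 2 samples per genotype and are not shown to mark shared cultures (correlation of deviations 0.173). With the replicate block 136 primer pairs were called and 0 bin pairs, domain pairs or primers. The difference in FOR577's higher-side share was 4.75 points at a reach of 250 kb, 12.5 at 1000 kb, 6.76 over pairs counted in all 4 libraries, 31.2 without partners within 10 kb, 24.6 with REV576 added and 33.2 for the 8 primers. The border's insulation difference was 0.33 with a 3-bin and 0.46 with a 10-bin window. Of the 17 called pairs of the interval bin, the pair with the adjoining bin at 30 kb turned, to -0.18, under a coverage offset, which moved the median of all bin pairs to -0.23. The bin pair of FOR64 and REV1208 ranged from -3.59 to 5.32 when 1 library was left out. D2 with D13, 0.02 without a block, was -0.051 under TMM, -0.66 with the B code, -0.68 within B100, -0.10 in DESeq2 and between -0.68 and 1.43 when 1 library was left out. D6 with D7 was -0.11 under TMM and -0.25 in DESeq2. The cause of these changes was not tested. With 2 libraries a genotype, no permutation p can pass 0.05.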
